A study of Mus musculus with 6 samples.

Results

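Distal chromosome 11 beyond 90 Mb is a stretch of 31.9 Mb at the far end of mouse chromosome 11, described here in fibroblasts that lack Ezh2. Its members are the deposited accessible intervals on chromosome 11 whose start lies at 90 Mb or beyond on the mouse build mm10. There were 1721 of them among 21835 intervals in the whole list. Intervals that repeat the same values are pieces of 1 called region, and after such rows were joined the segment held 1223 called regions of 19215. The remainder of chromosome 11, which starts before that boundary and is called proximal chromosome 11 here, held 718 intervals in 680 called regions.

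Chromatin accessibility was measured by ATAC-seq, in which a transposase cuts open DNA and tags it for sequencing, in a mouse embryonic fibroblast line (line A, C2) immortalised with c-myc. The series had 2 Ezh2 -/- samples, 2 Ezh2 -/- samples carrying a retroviral pMSCV-Ezh2 construct, and 2 wild-type samples, all 6 from the same immortalised line. The values come from the 1 list of the Ezh2 -/- cells, and the other 2 groups were not analysed here. With 1 list and no value per replicate there is no replicate error, the read depth is unknown, and nothing below compares genotypes.

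Ezh2 provides the methyltransferase activity of the Polycomb complex PRC2, whose mark on histone H3 lies at silent developmental genes. The second Polycomb complex, PRC1, carries Cbx and Pcgf subunits and binds the marked chromatin. Accessible chromatin typically forms tall, narrow signal at active promoters and lower signal at enhancers and gene bodies. The distal end of chromosome 11 is rich in genes and carries the HoxB cluster, which patterns the body axis, the type I keratin genes of epithelia, and several Polycomb genes. The segment was proposed because of its density of intervals in this list, so its density and signal are given as a description, with no test.

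The 9 promoters printed here, each from 250 bases before to 50 bases after an annotated start, show the range of the segment, from tall maxima to no interval at all. The sequences are RefSeq's, build GRCm38.p6, read 5′ to 3′ on the strand of the gene. Capitals mark matches on either strand to the GC box GGGCGG, the CCAAT box CCAAT and the AP-1 site TGANTCA, and where matches overlap they form 1 run of capitals. The first 3 belong to called regions among the tallest of the segment: Stat3, a transcription factor activated by cytokines, H3f3b, which encodes the replacement histone H3.3, and Jmjd6, a dioxygenase. The next 3 belong to broad regions: Fasn, the fatty acid synthase, Cbx8, a Polycomb subunit, and Cavin1, a coat protein of caveolae. Hoxb4 and Hoxb1 are both HoxB genes. An interval lay within 1000 bp of the start of Hoxb4, and none lay that near the start of Hoxb1. The Hoxb4 interval begins at 96318571, downstream of the printed stretch. Krt14, a basal keratin of epidermis, stands for the keratin cluster. The annotated starts printed for Krt14 and H3f3b, 100206030 and 116024504, lie inside these genes, whose outer 5′ ends are at 100207510 and 116026039.
Stat3 (chr11:100939491-100939790, minus strand): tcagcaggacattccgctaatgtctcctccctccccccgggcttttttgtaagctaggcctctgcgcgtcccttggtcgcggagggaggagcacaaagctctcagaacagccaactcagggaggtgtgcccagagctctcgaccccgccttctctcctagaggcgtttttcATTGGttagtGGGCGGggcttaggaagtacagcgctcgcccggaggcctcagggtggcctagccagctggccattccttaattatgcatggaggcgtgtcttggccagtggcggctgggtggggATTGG
H3f3b (chr11:116024455-116024754, minus strand): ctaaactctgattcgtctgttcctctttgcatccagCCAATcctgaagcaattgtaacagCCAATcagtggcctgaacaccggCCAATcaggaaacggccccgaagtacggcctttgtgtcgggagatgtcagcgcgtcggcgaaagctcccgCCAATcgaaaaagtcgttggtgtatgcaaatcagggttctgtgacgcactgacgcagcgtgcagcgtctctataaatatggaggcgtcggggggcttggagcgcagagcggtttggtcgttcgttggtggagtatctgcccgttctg
Jmjd6 (chr11:116843400-116843699, minus strand): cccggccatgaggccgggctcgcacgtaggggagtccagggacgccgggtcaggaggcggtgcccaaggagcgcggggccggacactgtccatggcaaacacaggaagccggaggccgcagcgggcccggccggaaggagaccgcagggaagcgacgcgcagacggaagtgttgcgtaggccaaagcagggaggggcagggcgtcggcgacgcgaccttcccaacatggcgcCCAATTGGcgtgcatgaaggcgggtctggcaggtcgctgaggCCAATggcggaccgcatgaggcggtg
Fasn (chr11:120824498-120824797, minus strand): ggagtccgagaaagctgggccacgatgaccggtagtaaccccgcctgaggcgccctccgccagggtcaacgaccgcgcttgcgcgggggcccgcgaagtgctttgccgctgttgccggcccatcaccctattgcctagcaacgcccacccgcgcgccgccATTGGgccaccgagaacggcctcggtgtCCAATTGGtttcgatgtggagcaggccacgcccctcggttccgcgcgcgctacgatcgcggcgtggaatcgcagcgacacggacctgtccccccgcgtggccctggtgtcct
Cbx8 (chr11:119040864-119041163, minus strand): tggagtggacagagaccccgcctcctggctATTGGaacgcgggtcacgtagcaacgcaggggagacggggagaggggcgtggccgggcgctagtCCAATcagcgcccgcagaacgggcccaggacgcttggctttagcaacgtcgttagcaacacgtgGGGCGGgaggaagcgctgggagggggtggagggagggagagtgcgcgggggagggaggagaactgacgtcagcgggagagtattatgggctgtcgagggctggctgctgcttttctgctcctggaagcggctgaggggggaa
Cavin1 (chr11:100970568-100970867, minus strand): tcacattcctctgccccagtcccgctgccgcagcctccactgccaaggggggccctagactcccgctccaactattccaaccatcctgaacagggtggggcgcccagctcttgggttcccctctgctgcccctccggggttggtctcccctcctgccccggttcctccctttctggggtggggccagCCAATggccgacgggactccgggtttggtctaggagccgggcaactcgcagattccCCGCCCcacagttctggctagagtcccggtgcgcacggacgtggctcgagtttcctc
Hoxb4 (chr11:96318017-96318316, plus strand): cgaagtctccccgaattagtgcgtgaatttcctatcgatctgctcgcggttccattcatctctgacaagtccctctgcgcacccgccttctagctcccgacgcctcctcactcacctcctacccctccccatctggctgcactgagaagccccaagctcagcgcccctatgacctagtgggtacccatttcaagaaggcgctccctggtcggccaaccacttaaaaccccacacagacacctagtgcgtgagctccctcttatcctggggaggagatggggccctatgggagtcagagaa
Hoxb1 (chr11:96365508-96365807, plus strand): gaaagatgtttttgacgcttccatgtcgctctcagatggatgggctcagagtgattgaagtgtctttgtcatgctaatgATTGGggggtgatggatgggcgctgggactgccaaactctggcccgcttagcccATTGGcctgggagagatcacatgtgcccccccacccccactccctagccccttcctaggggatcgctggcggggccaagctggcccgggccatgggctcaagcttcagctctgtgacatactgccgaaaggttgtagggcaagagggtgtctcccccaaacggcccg
Krt14 (chr11:100205981-100206280, minus strand): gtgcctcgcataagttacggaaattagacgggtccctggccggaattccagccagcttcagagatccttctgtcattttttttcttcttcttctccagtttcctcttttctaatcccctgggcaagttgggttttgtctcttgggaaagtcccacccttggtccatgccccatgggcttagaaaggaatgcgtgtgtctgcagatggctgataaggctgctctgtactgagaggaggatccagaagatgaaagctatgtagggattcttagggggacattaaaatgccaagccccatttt
The maximum signal lay 191 bases upstream of the start at Stat3, 17 bases downstream at H3f3b and 66 bases upstream at Jmjd6. It lay 257 bases downstream at Fasn, 265 bases upstream at Cbx8, 68 bases upstream at Cavin1 and 420 bases downstream at Hoxb4. Neither Hoxb1 nor Krt14 had an interval within 1000 bp of the printed start. Among all promoters of the RefSeq table the GC box was found in 46.2%, the CCAAT box in 38.2% and the AP-1 site in 6.99%. These are matches of letters and not measured binding sites.

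Intervals were crowded on the distal segment. It held 53.9 intervals per Mb, against 7.98 per Mb on proximal chromosome 11, a ratio of 6.76. The next highest densities were 16.6 per Mb on chromosome 5, 15.6 per Mb on chromosome 19 and 13.9 per Mb on chromosome 2. All autosomal sequence other than the distal segment averaged 8.30 per Mb. The segment carried 7.88% of the intervals of the list. It spans 1.19% of the assembled chromosomes and carried 9.63% of the total signal on them. Within chromosome 11 it carried 70.6% of the intervals on 26.2% of the span.

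The segment also stood first per gene. The distal segment had 19.6 protein-coding genes per Mb, against 10.9 per Mb on proximal chromosome 11, a ratio of 1.79. Per protein-coding gene it had 2.75 intervals, against 0.730 on proximal chromosome 11, 1.98 on chromosome 5 and 1.39 on chromosome 2. Intervals covered 20.2% of the distal segment, against 2.03% of proximal chromosome 11. Among 21 units, the chromosomes that held intervals with chromosome 11 in its 2 stretches, the distal segment ranked 1 for intervals per Mb, intervals per gene, share covered and genes per Mb. It ranked 21 for the median maximum signal, the lowest place, with 20 against 22 on chromosome 5 and 23 on chromosome 2.

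In bins of 1 Mb the distal segment had the highest median of the stretches compared at each level of gene density. In bins with 15 to 29 genes the median was 72.5 intervals on the distal segment, against 13 on proximal chromosome 11, 39.5 on chromosome 5 and 29 on chromosome 2. In bins with 0 to 4 genes the medians were 9 intervals on the distal segment, 0 on proximal chromosome 11 and on chromosome 5, and 1 on chromosome 2. With 30 or more genes they were 75 on the distal segment, 14 on proximal chromosome 11 and 23.5 on chromosome 2. Chromosome 5 had 1 such bin, with 54 intervals. At least 50 intervals were found in 19 of the 32 distal bins (59.4%), in 0 of 90 bins on proximal chromosome 11 and in 40 of 2673 bins outside the segment. Of those 40 bins, 12 were on chromosome 5 and 12 on chromosome 2.

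**Figure D1:**
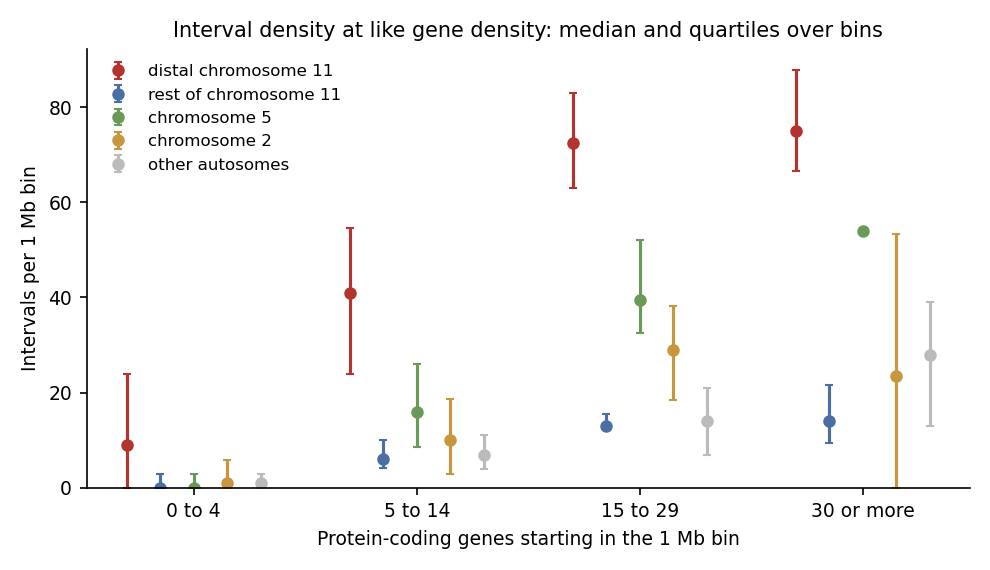
Intervals per 1 Mb bin (vertical axis) for bins grouped by their number of protein-coding genes (horizontal axis), with distal chromosome 11 drawn left of the rest of chromosome 11, chromosomes 5 and 2 and the other autosomes, points for medians and bars for quartiles over bins. In bins with 15 to 29 genes the distal median was 72.5 intervals, against 13 on proximal chromosome 11.

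The crowding did not begin at the 90 Mb boundary itself. The bin that starts at 90 Mb held 9 intervals, the next 2 bins held 0, and the bin at 93 Mb held 14. The bin at 94 Mb held 72 and the one at 95 Mb held 78. The longest stretch of the segment without an interval, 2909719 bp from 90639088 to 93548806, lies there. Tom1l1, an endosomal adaptor, and Kif2b, a kinesin, lie wholly within it. Cox11, an assembly factor of cytochrome oxidase, reaches into it from a start that has an interval, and Car10, a carbonic anhydrase-related protein, runs past its far end. A boundary at 93 Mb, chosen after the counts were seen, gave a density ratio of 7.57.

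The 3 called regions nearest the boundary on either side each appeared as 1 interval. Just outside it lay a region at Dgke, a diacylglycerol kinase, where total signal was 32507 and the maximum 44, one between genes with a total of 20050 and a maximum of 26, and one at Nog, which encodes the BMP antagonist noggin, with a total of 26666 and a maximum of 16. Just inside lay a region at Pctp, a phosphatidylcholine transfer protein, with a total of 18235 and a maximum of 37. The next 2 inside had totals of 23370 and 16382.

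The densest bin started at 119 Mb. It held 107 intervals over 42.8% of its length, and all 16 of its protein-coding genes had an interval at an end, among them the Polycomb genes Cbx2 and Cbx8. The bin at 116 Mb held 99 intervals, the one at 97 Mb held 98, and the one at 115 Mb held 93. In the bin at 97 Mb all 28 protein-coding genes had an interval at an end. Neighbouring intervals of the distal segment were separated by a median of 4471 bp, against 38442 bp on proximal chromosome 11. Another long stretch without an interval, 634996 bp from 99484362 to 100119357, covers all 23 genes named as keratin-associated.

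**Figure D2:**
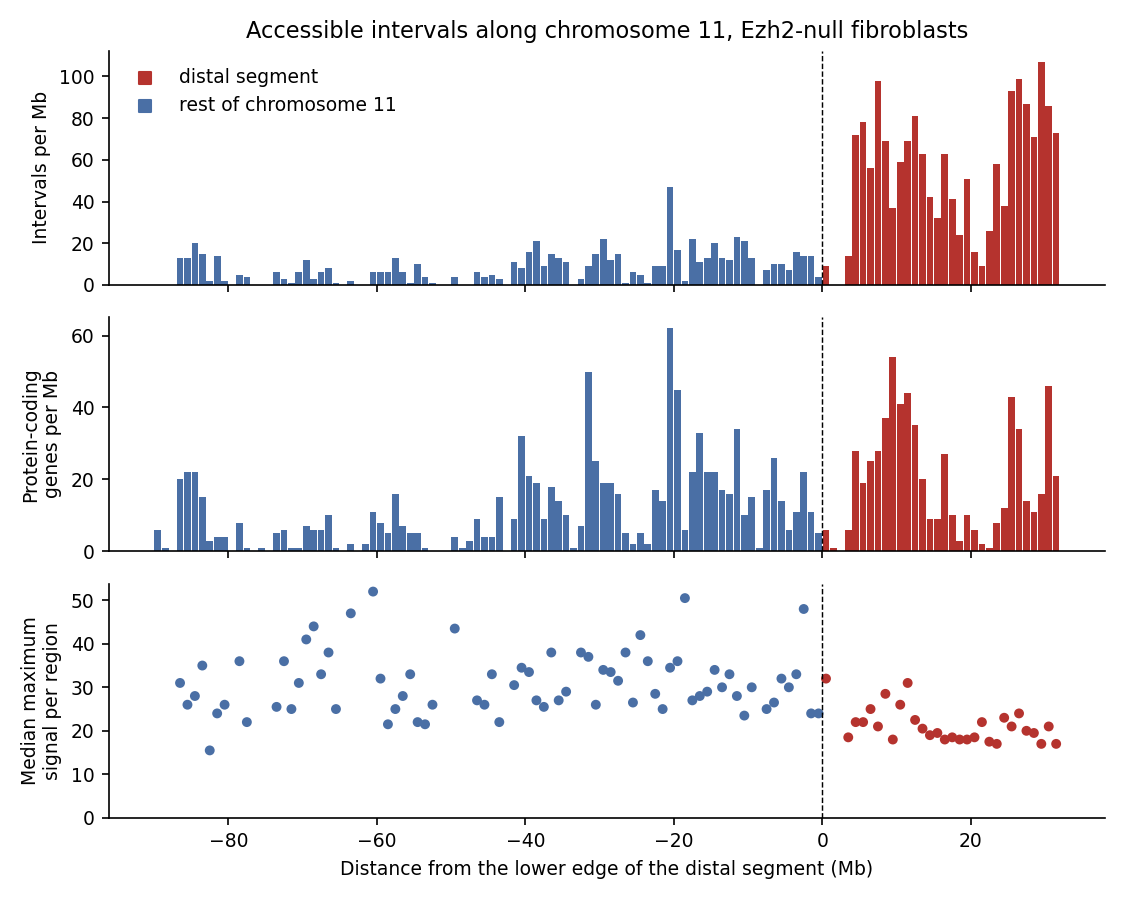
Intervals per 1 Mb bin (top), protein-coding genes per bin (middle) and median maximum signal of the called regions in a bin, in the authors' unit (bottom), against the distance in Mb from the lower edge of the distal segment at 90 Mb, marked by the dashed line. The distal bins reach 107 intervals and 19 of 32 hold at least 50, against at most 47 in a bin of proximal chromosome 11, and the 2 bins that follow the first distal one are empty.

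Called regions of the distal segment carried more total signal and less height than those of proximal chromosome 11. Total signal is the area under the coverage of a called region and maximum signal its greatest height, both in the authors' own unit. The median total was 39205 (quartiles 23092.5 and 67577) on the distal segment and 26166.5 (quartiles 19661 and 37266) on proximal chromosome 11. The median maximum was 20 on the distal segment and 30 on proximal chromosome 11. Chromosomes 5 and 2 lay nearer to the distal segment, with median totals of 34041 and 32785 and median maxima of 22 and 23. The lowest total in the list was 15316.

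Both ends of the height range were filled. A maximum of 20 or less was found in 612 of 1223 distal regions, against 135 of 680 proximal regions (19.9%). A maximum of 60 or more was found in 103 distal regions (8.42%), against 11 proximal regions (1.62%), and the 103 were 10.6% of the 976 such regions on assembled chromosomes. Among the 21 units the distal segment ranked 1 for this share and proximal chromosome 11 ranked 20. Other chromosomes came nearer to the distal shares. A maximum of 60 or more was found in 8.13% of regions on chromosome 10 and 7.73% on chromosome 5. A maximum of 20 or less was found in 36.7% on chromosome 10 and 45.7% on chromosome 5. Per Mb, low regions were 12.8 times and tall regions 26.4 times as dense on the distal segment as on proximal chromosome 11, while regions with a maximum of 21 to 40 were 2.53 times as dense. Start sites held the maximum of 75.7% of the tall distal regions and of 72.7% of the tall proximal ones. They held the maximum of 2.61% of the low distal regions and of 10.4% of the low proximal ones.

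**Figure D3:**
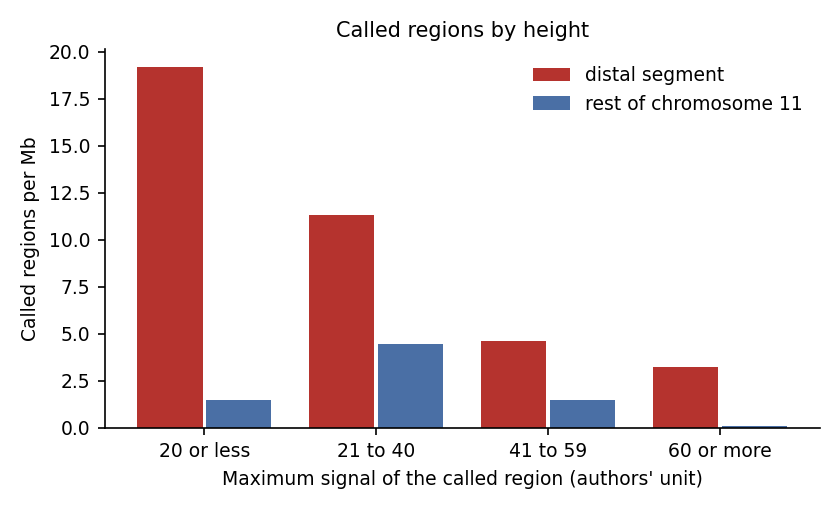
Called regions per Mb (vertical axis) in classes of maximum signal (horizontal axis), with distal chromosome 11 left of proximal chromosome 11. The distal segment held 19.2 regions per Mb with a maximum of 20 or less and 3.23 per Mb with a maximum of 60 or more, and the tall class held 0.122 per Mb on proximal chromosome 11.

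Height differed with the position of the maximum. Where the maximum lay within 1000 bp of an annotated start, its median was 50 in 221 distal regions and 36 in 336 proximal regions. The median total of these regions was 70370 on the distal segment and 28675 on proximal chromosome 11. Within 1000 bp of either gene end it was 43.5 in 296 distal regions and 34 in 371 proximal regions. Where the maximum lay inside a gene, its median was 17 in 508 distal regions and 25 in 182 proximal regions. Between genes it was 19 in 419 distal regions and 24 in 127 proximal regions. Against proximal chromosome 11, distal regions were thus taller at starts and lower inside and between genes. The pattern was not particular to the segment. Median maxima at starts, inside genes and between genes were 46, 18 and 19 on chromosome 5. On chromosome 2 they were 40, 19 and 20.

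The low regions were numerous. Regions with their maximum inside a gene came to 15.9 per Mb on the distal segment, against 2.02 per Mb on proximal chromosome 11, and those between genes to 13.1 per Mb, against 1.41 per Mb. By the midpoint of each interval, 17.1% of the distal intervals lay at a gene end, 49.4% inside a gene and 33.5% between genes. On proximal chromosome 11 the shares were 50.1% at a gene end, 30.9% inside a gene and 18.9% between genes. Chromosome 5 came nearer to the distal segment, with 21.9% at a gene end, 45.2% inside a gene and 32.9% between genes. On chromosome 2 these shares were 25.8%, 42.3% and 31.9%.

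**Figure D4:**
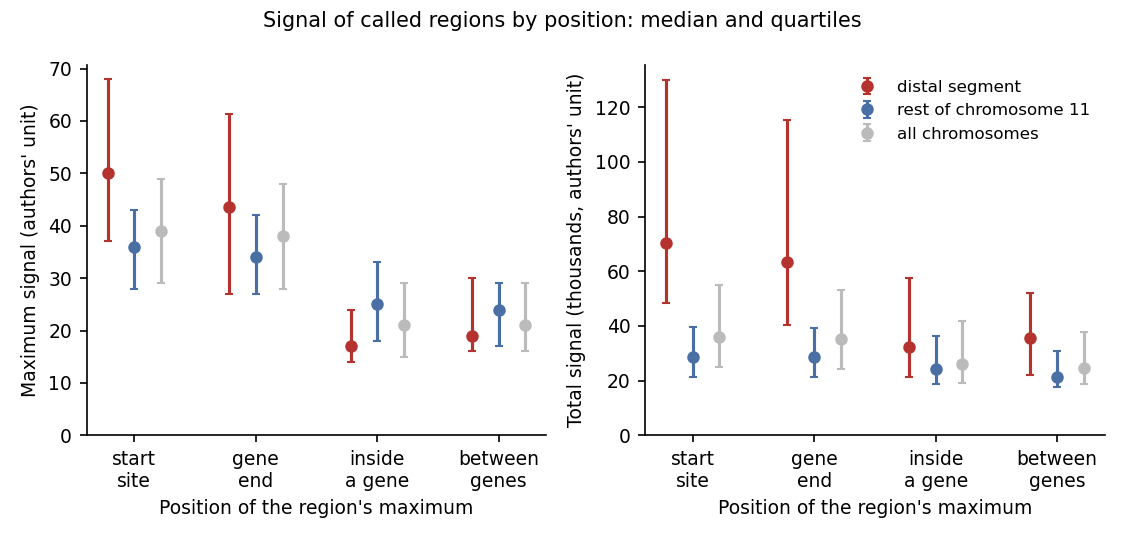
Signal of called regions (vertical axes, the authors' unit) by the position of the maximum (horizontal axis), as medians with quartile bars for distal chromosome 11, proximal chromosome 11 and, in grey, all chromosomes, with maximum signal on the left and total signal on the right. At annotated starts the median maximum was 50 on the distal segment and 36 on proximal chromosome 11, and inside genes it was 17 on the distal segment and 25 on proximal chromosome 11.

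Distal regions were also long and broken. More than 1 interval came from 360 of the distal regions (29.4%), against 34 of the proximal ones (5%). The share was 18.0% on chromosome 5, 15.8% on chromosome 2 and 15.4% on chromosome 19. The most broken region had 12 pieces on the distal segment and 3 on proximal chromosome 11. Why called regions were split is not stated in the labels or the processing notes. Intervals of at least 7000 bp numbered 186 on the distal segment (10.8%) and 10 on proximal chromosome 11 (1.39%), and the assembled chromosomes held 745 such intervals. Regions present as 1 interval had a median mean signal per base of 10.7 on the distal segment and 11.7 on proximal chromosome 11, and their median width was 2830 bp on the distal segment and 2266 bp on proximal chromosome 11. The longest interval, 35030 bp from 120799110 to 120834139, covered Fasn and the neighbouring end of Ccdc57.

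The regions of highest total signal lay over several neighbouring genes. The first, from 119169285 to 119240708 with a total of 563210 and a maximum of 47, lay at Tbc1d16, a GTPase-activating protein for Rab proteins, and Ccdc40, needed for ciliary motion, in 12 pieces. The region from 98920583 to 98955665, with a total of 450377 and a maximum of 57, joined Cdc6, which licenses replication origins, and Rara, a retinoic acid receptor. That from 120451858 to 120502376, with a total of 439060 and a maximum of 71, lay at Hgs, Oxld1, Mrpl12 and Slc25a10, of which Hgs sorts endosomal cargo and Slc25a10 carries dicarboxylates into mitochondria. The maximum of the last lay 37 bp from an end of Hgs, and that of the Cdc6 and Rara region inside Rara.

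Further high totals were 384079 at Ppp1r9b, Samd14 and Pdk2, 380108 at Fasn and Ccdc57, 356542 at Baiap2 and Aatk, and 354291 at Engase and Rbfox3. The region at Socs3, the feedback inhibitor of cytokine signalling, had a total of 332898 and a maximum of 83. It was the 1 region among the 15 highest by total that was also among the 15 highest by maximum. The 15 highest totals together held 7.44% of the total signal of the segment.

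The tallest regions were narrower. The highest maximum, 134 with a total of 89081, lay from 101640808 to 101642602, between Rdm1, 5987 bp away, and Arl4d, 23465 bp away. Maxima of 105 at an end of B3gntl1, 98 at an end of Amz2 and 95 at an end of Stat3 followed. A further 95, in a region that reaches an end of Tex2, and a 94, in one that reaches an end of Arl4d, lay between genes. The next were 91 inside H3f3b and 90 at the adjoining ends of Jmjd6 and Mettl23. The Stat3 region, whose promoter is printed above, had a total of 50574, well under the totals of the broad regions.

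Most protein-coding genes of the segment had an interval at an end. At least 1 bp of an interval lay within 1000 bp of either end in 483 of 626 genes (77.2%, exact 95% binomial interval 73.7 to 80.4%), against 490 of 983 genes on proximal chromosome 11 (49.8%). The share was 63.2% on chromosome 5, 51.0% on chromosome 2 and 47.4% of 21883 genes on all chromosomes. For annotated starts alone it was 318 of 464 genes (68.5%) on the distal segment, 412 of 807 genes (51.1%) on proximal chromosome 11 and 46.9% on all chromosomes. Binomial intervals here cover counting over genes only, and the same rows chose the segment.

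The 3′ ends stood further apart than the 5′ ends. Of genes with a known strand, 66.8% had an interval at the 5′ end on the distal segment and 50.7% on proximal chromosome 11. At the 3′ end the shares were 51.9% on the distal segment and 10.2% on proximal chromosome 11. Gene bodies with at least 5 intervals numbered 64 on the distal segment (10.2% of its genes) and 5 on proximal chromosome 11 (0.509%). The most were found in Rptor, a subunit of the growth regulator mTORC1, with 26 intervals, and Slc39a11, a zinc transporter, with 23.

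Promoters rich in CpG differed less between the stretches than promoters poor in CpG. CpG-rich promoters, with an observed to expected ratio of at least 0.6, had an interval in 270 of 318 cases (84.9%) on the distal segment, against 417 of 549 (76.0%) on proximal chromosome 11 and 75.3% on all chromosomes. CpG-poor promoters had one in 129 of 253 cases (51.0%, exact 95% binomial interval 44.7 to 57.3%) on the distal segment, against 82 of 441 (18.6%, interval 15.1 to 22.5%) on proximal chromosome 11 and 19.7% on all chromosomes. The GC box was found in 59.1% of distal promoters with an interval and in 27.3% of those without. The TATA box, searched as TATAAA on both strands, was found in 7.02% of distal promoters with an interval and in 36.0% of those without. On proximal chromosome 11 it was found in 4.61% of promoters with an interval and in 14.7% of those without, against 12.6% of all promoters. The distal promoters without an interval include most of those of keratin and keratin-associated genes. What these genes contribute to the 36.0% was not tested.

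Gene groups of the segment were read against its own share of 77.2%. Without the keratin and keratin-associated genes, which enter none of the other groups, that share was 82.1% of 576 genes. The groups hold 191 genes in all and were chosen with earlier results of these data known, besides the 50 keratin and keratin-associated genes taken by name. For each gene the total signal is that of the called region with the highest total at its ends, with the maximum of the same region. The group medians of maximum signal take the tallest region at each gene's ends. Over the 483 genes of the segment with an interval, that median was 45. A called region can reach several genes, so its total is not that of 1 gene and its maximum can lie at a neighbour. The maximum lay in the gene or within 1000 bp of it for all 6 Polycomb genes with an interval, 17 of 21 signalling genes and 19 of 22 chromatin genes. It did so for 9 of 16 developmental regulators, 9 of 13 fibroblast genes and 9 of 21 genes of other cell types.

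Genes without an interval at an end were in part neighbours. A run of 12 protein-coding genes from 120529185 to 120643748 had no interval at an end or in the body, and it holds P4hb, Alyref, Anapc11, Pcyt2, Sirt7, Mafg and Pycr1. A run of 5 such genes from 106249138 to 106303703 holds Psmc5, Smarcd2 and Gh. The longest such run, 47 genes, lies in the keratin cluster.

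**Figure D5:**
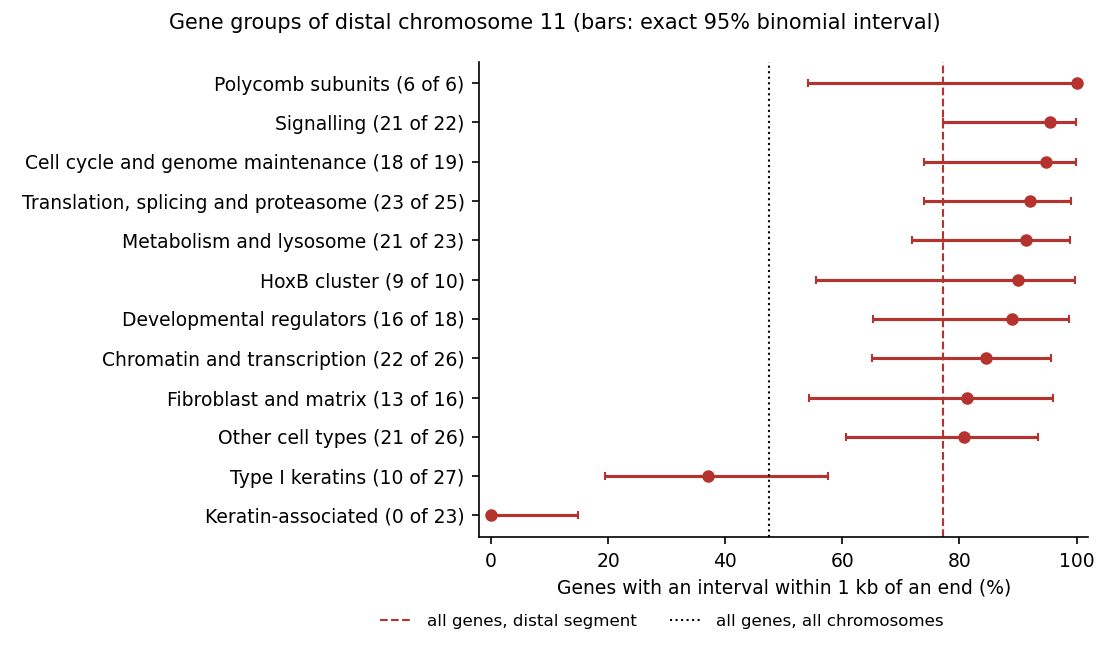
Share of each gene group with an interval within 1000 bp of a gene end (horizontal axis, %), with points for the share and bars for the exact 95% binomial interval. The dashed line is the share of all genes of the segment, 77.2%, and the dotted line that of all chromosomes, 47.4%; keratin and keratin-associated genes lie under both.

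All 6 Polycomb subunit genes of the segment had an interval. Pcgf2, also called Mel18, shared a region with a total of 280999 and a maximum of 81 with Mllt6, Cisd3 and Psmb3, and the maximum lay nearest to an end of Psmb3. Of the chromobox genes, Cbx8 had a total of 274152 with a maximum of 71 and Cbx2 had 125324 with a maximum of 46. Epop, an elongin-binding partner of PRC2, had a total of 204844, and Ezh1, the paralog of Ezh2, had 41146 with a maximum of 49. Ezh1 was thus the lowest of these by total signal, and Epop the lowest by height, with a maximum of 40.

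Of the 10 HoxB genes 9 had an interval at an end, and Hoxb1, the gene at the 3′ end of the cluster, had none. An interval of 15455 bp from 96269760 to 96285214, with a total of 169507 and a maximum of 40, overlapped Hoxb9 and Hoxb8. It peaked beside Hoxb8 and ended short of Hoxb7, which counts only through the window of 1000 bp. A region in 4 pieces with a total of 157215 and a maximum of 31 reached Hoxb6, Hoxb5 and Hoxb3 and peaked beside Hoxb5. Hoxb2 had a region with a total of 39957 and a maximum of 27, Hoxb4 one with 39635 and 40, and Hoxb13 one with 33976 and 21. The median maximum over the 9 genes was 31, under the 56 of the Polycomb subunits. It was 45 over all genes of the segment with an interval and 20 over all its called regions. Shared regions enter the HoxB median once for each gene counted.

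Other developmental regulators had an interval at an end in 16 of 18 cases. Of those with the maximum in the gene or within 1000 bp of it, Etv4, an ETS factor, had a total of 130634, Notum, which removes the lipid of Wnt proteins, had 127967, and Foxj1, the regulator of motile cilia, had 116400. The 2 highest totals of the group belonged to regions that peaked at neighbours. The region that reaches Sost, an inhibitor of Wnt signalling in bone, had a total of 206121 and peaked 19247 bp from Sost, nearest to an end of Dusp3. The region that reaches Sp6 had a total of 205184 and peaked 16884 bp from it, 41 bp from an end of Mrpl10. That of Dlx3, a homeobox factor of skin and bone, had 119031 and peaked 2938 bp from the gene. Meox1 and Wnt3 had no interval at an end, although 9 intervals lay over the body of Wnt3.

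Fibroblast and matrix genes had an interval at an end in 13 of 16 cases. Cavin1 led with a total of 179518 and a maximum of 53, which lay 67 bp from the gene. Mrc2, a collagen uptake receptor, had 150432, Lgals3bp had 135593, and Col1a1, a chain of type I collagen, had 108721 with a maximum of 47, all with the maximum in or beside the gene. The region that reaches Itga3, a laminin-binding integrin subunit, had 149693 and peaked nearest to an end of Pdk2. That of Fkbp10, a collagen chaperone, had 138365 and peaked nearest to an end of P3h4. Actg1, Chad and P4hb had none.

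Genes that mark other cell types had an interval at an end in 21 of 26 cases, near the share of the whole segment. The 3 highest totals belonged to regions that peaked at neighbours. The region that reaches one end of Rbfox3, the neuronal marker NeuN, had a total of 354291 and peaked 12928 bp from the gene, 30 bp from an end of Engase, and the annotated start of Rbfox3 had no interval. That of Unc13d, used in granule release by lymphocytes, had 310436 and peaked 18 bp from an end of Wbp2. That of Cntnap1, of axonal junctions, had 261824 and peaked 39 bp from an end of Plekhh3.

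With the maximum in the gene or within 1000 bp of it, Itga2b of platelets had a total of 209368, Cnp of myelin had 144477 and Mapt, which encodes the neuronal protein tau, had 126930. No gene-end interval was found at G6pc of liver, Gh of pituitary, Hcrt of hypothalamus, Myl4 of heart or Pecam1 of endothelium. Myl4 had an interval at an annotated start inside the gene's outer ends, and 2 intervals lay over the body of Pecam1. The median maximum of the 21 genes was 30, against 48 for the 13 fibroblast genes and 45 for all genes of the segment with an interval. At annotated starts an interval was found in 7 of 12 marker genes, against 7 of 10 fibroblast genes and 68.5% of all genes of the segment with a start in the table. What neighbouring genes contribute to these counts was not tested.

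Keratin genes were the exception in the segment. Type I keratins had an interval at an end in 10 of 27 cases, with a median maximum of 15, and at the start in 2 of 20 cases. Krt13 led with a total of 50780, followed by 49676 in a region shared by Krt17 and Krt42. The 23 keratin-associated genes, which encode hair matrix proteins, had an interval in 0 of 23 cases, with an upper 95% bound of 14.8%.

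Genes of general cell function mostly had intervals. Signalling genes had one in 21 of 22 cases with a median maximum of 55, and Grb7, an adaptor, had none. Besides Rara and Socs3, the highest totals were 185444 at Ngfr, the neurotrophin receptor, 181595 at Sphk1, a sphingosine kinase, and 179058 at Thra, a thyroid hormone receptor, each with the maximum inside the gene. A region that reaches Map3k3, a MAP kinase kinase kinase, had 176650 and peaked nearest to an end of Limd2. Genes of the cell cycle and genome maintenance had one in 18 of 19 cases with a median maximum of 54.5, and Anapc11, a subunit of the anaphase-promoting complex, had none. Here the region at Brca1, of DNA repair, had a total of 108918 with a maximum of 71. That maximum lay 728 bp from Brca1 and inside the neighbouring Nbr1, 576 bp from an end of Nbr1. Tubg2, a gamma-tubulin, is reached by the region of 261824 that it shares with Plekhh3 and Cntnap1, and the annotated start of Tubg2 had no interval. Tk1, the thymidine kinase, is reached by a region of 203975 that peaked 4922 bp from it.

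Chromatin and transcription genes had an interval at an end in 22 of 26 cases, and Mafg, Sirt7, Smarcd2 and Ubtf had none there, although Ubtf had one at an annotated start. Mllt6 is reached by the region of 280999 that peaks by Psmb3. Bahcc1 had 252950, Med24 of Mediator had 214156 and Sp2 had 187594 with a maximum of 88. Hdac5, a histone deacetylase, had 180283 and Nfe2l1, a regulator of proteasome genes, had 165463. Metabolic and lysosomal genes had one in 21 of 23 cases, with Pcyt2 and Pycr1 as the exceptions. After Slc25a10, Pdk2 and Fasn, the highest was Slc25a39, a mitochondrial carrier, with 244143. Regions that reach Rptor, with 237048, and Grn, which encodes progranulin, with 153692, peaked nearest to ends of Chmp6 and of Fam171a2.

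Genes of translation, splicing and the proteasome had an interval in 23 of 25 cases, all but Alyref and Psmc5, and the highest median maximum of the groups, 64. Psmb3, a proteasome subunit, had a total of 280999, Ddx5, an RNA helicase, 277958 and Eif1, an initiation factor, 245342, each with the maximum in or beside the gene. The regions that reach Mrpl12, Mrpl38 and Psmd3 peaked more than 1000 bp from those genes. By gene name, the cytosolic ribosomal protein genes Rpl and Rps had an interval in 4 of 4 cases with a median maximum of 60.5, against 63 of 69 and 43 on the other autosomal sequence. Proteasome genes named Psm had one in 4 of 5 cases with a median maximum of 69, against 29 of 42 and 35 elsewhere. Mitochondrial ribosomal genes named Mrp had one in 7 of 7 cases with a median maximum of 45, against 53 of 68 and 40 elsewhere. In these families, which are transcribed in nearly all cells, both medians, of height and of total, were the larger on the distal segment, with regions shared between neighbours included.

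Among microRNAs, 12 of the 27 hairpins of the segment in the RefSeq sequence table lay wholly inside an interval and 1 ran past the end of one, where intervals covered 20.2% of the segment. The mature sequences shown belong to 3 of the 12 and to 1 that lay outside, with the seed, bases 2 to 8, in capitals. The 4 seeds differ from each other.
miR-196a-5p: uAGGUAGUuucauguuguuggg
miR-152-3p: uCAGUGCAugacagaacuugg
miR-338-3p: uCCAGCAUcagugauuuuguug
miR-10a-5p: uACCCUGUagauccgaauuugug
The hairpin of miR-196a, at chr11:96265164-96265265 in the HoxB cluster, lay in an interval with a total of 62736 and a maximum of 40. That of miR-152, inside Copz2, lay in one with a total of 31742 and a maximum of 26. The hairpin of miR-338, inside Aatk, lay in the broad region with a total of 356542. The hairpin of miR-10a, at chr11:96317165-96317274 in the HoxB cluster, lay outside any interval.

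The list has no value for DNA input or for the number of copies of the segment per cell. A difference in copies, in the share of cells with open chromatin and in signal per cell therefore cannot be told apart.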

How the data were processed

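ATAC-seq was run on whole cells of 3 groups with 2 samples each, per the labels' protocols, and the genotype and treatment labels gave the groups. The submitters' processing notes name Bowtie2 2.2.9, deepTools, SEACR and the build mm10, with no order or settings. The threshold, any control, duplicate removal, any shift of reads and the way the 2 replicates entered the list are not stated in those notes or the labels.

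The 1 deposited list has 6 columns and no header, read in SEACR's order. The total signal is a score that the authors deposited in a unit of their own, and the maximum signal is a coverage height deposited without a stated normalization. Rows with equal chromosome, total, maximum and region of maximum were joined into 1 called region before signal was summarised. With no counts the depth is unknown.

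Protein-coding genes, promoters and microRNAs came from RefSeq tables on GRCm38.p6, the assembly behind mm10. Promoters covered 464 of the 626 genes of the segment. A gene had an interval where at least 1 bp lay within 1000 bp of an end. Strand was known for genes with a promoter, and start sites were added as an alternative after the tables were seen. Of 193 entries of the gene groups 191 matched the segment.

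The segment, the groups and the comparisons were chosen with earlier results of these data known, and no test was made. Named genes are those at the 15 regions of highest total and of highest maximum, at the 10 widest intervals, at the boundary and in the densest and emptiest bins, all HoxB and Polycomb genes, and from each other group the highest by total and the first without an interval. Some genes taken by the rule are not reported here by name and enter only the counts. Shares carry exact 95% binomial (Clopper-Pearson) intervals. Alternatives covered gene-end windows of 500 or 2500 bp, a minimum overlap of 200 bp, stricter totals and other boundaries. Calculations used Python 3.11.15, numpy 2.4.6, pandas 2.3.3, scipy 1.17.1 and matplotlib 3.10.9, and the interval code was tested on simulated data.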

Additional observations from a re-analysis of the deposited data

How the results depend on the processing

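No paired analysis was possible because the list holds no value per replicate, and leaving out each replicate was not run for the same reason. The density ratio of 6.76 stayed above 1 in every setting tried. It was 5.07 for called regions, 11.1 for intervals above the median total of all called regions and 19.6 above their upper quartile. It was 4.13 for intervals that hold their own maximum and 3.23 for called regions with a maximum of 30 or more, the last chosen after seeing the data. At the cutoffs on total, rows were not joined, so each piece of a split region counted with the total of its whole region. Split regions were 29.4% of distal and 5% of proximal regions. What such repeats contribute to the ratios of 11.1 and 19.6 was not tested. The median total of 39205 on the distal segment was 50364 with rows not joined, 30268 for regions present as 1 interval and 70370 for maxima at annotated starts. The median maximum of 20 was 23 with rows not joined and 19 for regions present as 1 interval. For maxima at annotated starts, a setting chosen after seeing the data, the order turned round, with 50 on the distal segment and 36 on proximal chromosome 11. The share of genes with an interval, 77.2%, was 72.7% above the median total, 63.7% above the upper quartile, 66.1% for intervals with their own maximum, 82.1% without keratin genes and 68.5% for annotated starts. The share of intervals away from gene ends, 82.9%, was 89.4% with windows of 500 bp and 70.5% with windows of 2500 bp. The depth, and with it the precision of each signal value, is unknown.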

Other observations

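Non-coding genes of the distal segment had an interval at an end more often than those of proximal chromosome 11. Long non-coding RNA genes had one in 162 of 259 cases (62.5%) on the distal segment, against 82 of 493 (16.6%) on proximal chromosome 11 and 20.8% on all chromosomes. MicroRNA genes, more of which are in the gene table than in the sequence table, had one in 18 of 29 cases (62.1%) on the distal segment, against 16 of 59 (27.1%) on proximal chromosome 11 and 19.6% on all chromosomes. Pseudogenes had one in 20 of 78 cases (25.6%) on the distal segment, against 11 of 334 (3.29%) on proximal chromosome 11 and 2.79% on all chromosomes. Many of these genes lie inside or beside protein-coding genes, and how far the counts overlap was not tested.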
